A study of Homo sapiens with 6 samples.

Results

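The genes described here are 51 neighbours on the distal long arm of human chromosome 21, in band 21q22, from TTC3 on the centromere side to MCM3AP near the end of the arm. The stretch was chosen by a joint rise of its transcripts in H-INV over L-INV cells on these same 6 arrays, so the log2 fold changes below describe that choice and are no test of it. Of the 51 genes, 48 had at least 1 probe assigned to a single gene symbol (89 probes), and 37 had a probe that exceeded background (detection p under 0.01) on 3 or more of 6 arrays. These 37 measured members stand among 10279 measured genes in the whole series.

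Chromosome 21 is the smallest human autosome, and its distal long arm is gene-dense. The region is best known from Down syndrome, in which an extra copy of the chromosome raises the dose of its genes, DYRK1A, HMGN1, ETS2 and SIK1 among them. The members belong to no common pathway. They include splicing and ribosome assembly factors, ubiquitin and SUMO proteins, protein kinases, transporters, proteases and surface proteins, and share mainly their address.

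H460 is a human cell line derived from a large cell carcinoma of the lung. Cells that crossed a coated membrane (H-INV, high invasiveness) and cells that stayed above it (L-INV, low invasiveness) were separated over repeated rounds and kept in glucose-free medium between selections. No drug or engineered allele distinguishes the groups, both descend from the same line, and the labels and the methods give different times and numbers of rounds for the selection. Each group comprised 3 sets of cells, and total RNA of each set was hybridised to 1 Illumina HT-12 v4 array. Nothing states that the sets were selected independently, so p-values measure only the spread between these sets.

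The arrays shared 1 BeadChip, with the L-INV sets on sections A, B and C and the H-INV sets on D, E and F, so that position and group cannot be told apart. The arrays had median intensities of 123 to 134 and 16368 to 16985 probes above background, and correlated at 0.995 to 0.996 within groups and 0.920 to 0.927 between them. Of the 6 epithelial markers, 5 were above background on at least 1 array and CDH1 on none, and their summed level was 2020 to 2100 on the H-INV and 7800 to 7880 on the L-INV arrays. KRT19, which was 17.4-fold lower in H-INV cells, carried most of that difference. KRT8 was 1.23-fold lower, KRT7 was 2.13-fold higher and KRT18 was not called. EPCAM was also called lower, being above background on every L-INV array and on no H-INV array. The fitted log2 fold change of EPCAM, -1.55, thus rests on H-INV values below background. PTPRC and CD3E, 3 endothelial markers and 3 of 5 fibroblast markers were above background on no array. COL1A1 was above background on 2 H-INV arrays, PDGFRB on 2 L-INV arrays and CD14 on all 6, where it was 2.85-fold lower in H-INV cells. The part of these differences in the values below was not tested.

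Levels are log2 of background-corrected, quantile-normalized probe intensity, and a gene is represented by its brightest probe. A gene is said to have risen or fallen where limma gave an adjusted p under 0.05 over all 10279 genes. Of the 37 measured members, 27 rose in H-INV cells, 5 fell (BACE2, ABCG1, CBS, SIK1 and HSF2BP) and 5 did neither (TTC3, BRWD1, SH3BGR, ZBTB21 and SLC37A1). Over all measured genes 32.6% rose and 25.4% fell (58.0% in either direction). The members were listed for rising, so nothing is read from their count. The median log2 fold change of the members was 0.51 (1.42-fold), with quartiles of 0.04 and 0.81, and that of the other 10242 genes was 0.04, with quartiles of -0.24 and 0.33. A change in transcript per cell and a change in the share of cells carrying it cannot be told apart in bulk RNA.

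The 27 members that rose did so by 0.23 to 1.43 on the log2 scale, with a median of 0.75 (1.69-fold). Of these, 8 rose by under 0.5, 13 by 0.5 to 1 and 6 by more than 1. The 6 that more than doubled were RIPK4, SPATC1L, RRP1, SLC19A1, LRRC3 and PCBP3, where 4.22% of all genes rose and 6.02% fell beyond the same fold. These doublings depended on the background correction, since without it the same 6 genes rose by 0.44 (LRRC3) to 0.87 (RIPK4), and in the authors' table LRRC3 rose by 0.81 and PCBP3 by 0.92. LRRC3 also fell short at 0.96 without L-INV replicate 2, and PCBP3 at 0.98 without L-INV replicate 3 and 0.996 without H-INV replicate 3. The 3 H-INV arrays gave similar shifts, since the median member lay 0.60, 0.55 and 0.55 above its own L-INV mean on H-INV arrays 1, 2 and 3. The corresponding values on the L-INV arrays were 0.01, -0.04 and 0.002, and the other genes had medians of 0.05, 0.05 and 0.05 on the H-INV arrays. All H-INV arrays lay above all L-INV arrays for 26 members and below them for 5, and the groups overlapped for 6. The same held for 36.3% and 28.2% of all measured genes.

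**Figure D1:**
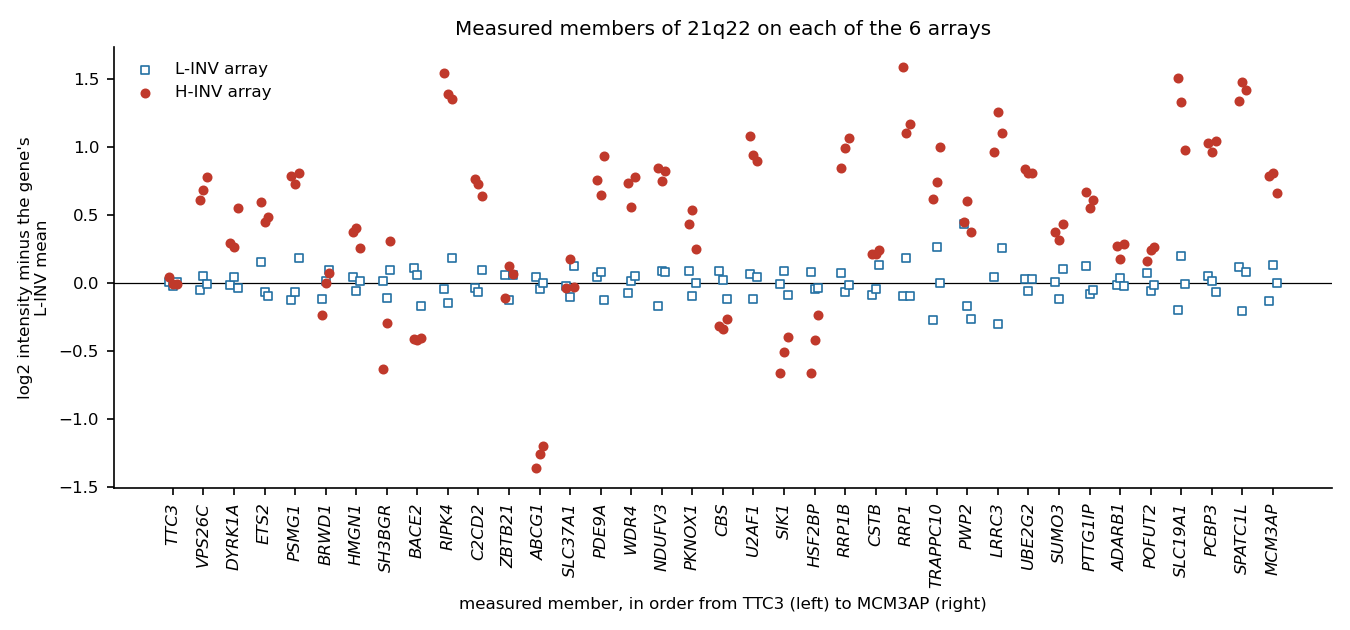
Level of each of the 37 measured members on each array, as log2 intensity minus the gene's L-INV mean (vertical axis), in chromosomal order from TTC3 to MCM3AP (horizontal axis). Open squares are the 3 L-INV arrays and filled circles the 3 H-INV arrays. Most filled circles lie above 0, with RIPK4, RRP1, SLC19A1 and SPATC1L among the highest, and those of BACE2, ABCG1, CBS, SIK1 and HSF2BP lie below all squares of the same gene.

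Promoter sequences were examined for letters that the neighbours share. RefSeq windows (GRCh38.p14) were found for 37 of the 51 members, 22 of the 27 risers and 2 of the 5 that fell, and the 250 bases before each listed start were searched on both strands. A gene counts once whichever of its starts holds the motif. The GC box (GGGCGG), bound by SP-family factors, was held by 81.8% of the risers with a window, 81.1% of all members with a window, 75% of the 8400 measured genes with a window and 46.2% of all 27305 genes with a window. The E-box CACGTG was held by 18.2%, 21.6%, 11.5% and 7.73% in the same order, the CCAAT box (CCAAT) by 27.3%, 27.0%, 42.6% and 37.0%, and the ETS motif CCGGAAGT by 9.09%, 5.41%, 8.85% and 4.13%. The TATA box (TATAAA) was held by 4.55%, 13.5%, 8.05% and 13%. The share with a GC box among the risers lay closer to that of measured genes than to that of all genes, and no test was made.

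The 200 bases before the start are shown for 4 risers with a single listed start (PSMG1, U2AF1, RRP1 and PWP2), for SIK1, which fell, and for ZBTB21, which was not called, so that promoters of neighbours that went different ways can be read side by side. Each is written 5′ to 3′ on the strand of its gene, with capitals for matches to the searched motifs on either strand, overlapping matches included (the GC box reads CCGCCC on the opposite strand). The windows lie at chr21:39183452-39183651 (minus strand) for PSMG1, chr21:43107571-43107770 (minus strand) for U2AF1, chr21:43789377-43789576 (plus strand) for RRP1, chr21:44107199-44107398 (plus strand) for PWP2, chr21:43427132-43427331 (minus strand) for SIK1 and chr21:42010361-42010560 (minus strand) for ZBTB21, in GRCh38.p14.
PSMG1: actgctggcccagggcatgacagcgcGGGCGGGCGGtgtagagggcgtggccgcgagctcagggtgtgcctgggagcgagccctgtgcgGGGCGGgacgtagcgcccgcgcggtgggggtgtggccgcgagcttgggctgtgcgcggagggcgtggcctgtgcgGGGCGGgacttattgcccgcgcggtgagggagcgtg
U2AF1: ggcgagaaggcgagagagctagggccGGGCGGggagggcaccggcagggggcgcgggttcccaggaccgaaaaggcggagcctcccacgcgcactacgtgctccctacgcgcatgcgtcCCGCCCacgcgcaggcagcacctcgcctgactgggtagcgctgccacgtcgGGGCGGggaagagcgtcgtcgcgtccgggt
RRP1: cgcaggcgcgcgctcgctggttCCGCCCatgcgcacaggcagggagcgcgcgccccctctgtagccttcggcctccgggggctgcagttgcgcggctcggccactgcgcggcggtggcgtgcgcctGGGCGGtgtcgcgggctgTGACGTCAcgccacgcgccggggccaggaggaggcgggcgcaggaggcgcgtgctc
PWP2: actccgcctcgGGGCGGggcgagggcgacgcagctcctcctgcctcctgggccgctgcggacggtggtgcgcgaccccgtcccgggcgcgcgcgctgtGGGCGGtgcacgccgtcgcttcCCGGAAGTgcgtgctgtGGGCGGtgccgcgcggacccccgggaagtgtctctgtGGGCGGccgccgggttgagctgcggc
SIK1: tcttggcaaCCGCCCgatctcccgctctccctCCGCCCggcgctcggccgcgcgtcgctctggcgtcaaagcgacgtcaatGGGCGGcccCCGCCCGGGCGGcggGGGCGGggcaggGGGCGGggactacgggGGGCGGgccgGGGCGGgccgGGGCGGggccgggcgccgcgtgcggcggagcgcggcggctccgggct
ZBTB21: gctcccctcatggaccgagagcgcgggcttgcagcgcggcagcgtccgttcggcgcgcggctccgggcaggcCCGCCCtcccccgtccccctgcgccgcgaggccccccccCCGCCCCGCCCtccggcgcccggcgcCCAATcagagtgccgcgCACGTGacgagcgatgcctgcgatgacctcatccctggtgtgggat
The windows are GC-rich, at 74.0% to 84.0%. PSMG1 held 4 motif matches, U2AF1 and RRP1 held 3 each and PWP2 held 5, while SIK1 held 10, all of them GC boxes, and ZBTB21 held 5. RRP1 also carries the cyclic AMP response element TGACGTCA and PWP2 the ETS motif CCGGAAGT. A GC box stood before genes that rose, before SIK1, which fell, and before ZBTB21, which was not called. A match describes the letters only and shows no binding.

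All 8 listed genes of RNA processing and ribosome making were measured and rose, by a median of 0.86 (1.82-fold), where 32.6% of all measured genes rose. The role groups here and below hold members listed for rising, so nothing is read from the count of risers in any of them. RRP1, a nucleolar protein of large ribosomal subunit assembly, had levels of 6.37, 6.66 and 6.38 in L-INV and 8.06, 7.57 and 7.64 in H-INV cells. Its groups were well apart, with H-INV array 1 the highest, and the log2 fold change was 1.29 ± 0.137 (SE, n = 3 per group). Its paralogue RRP1B stood at 8.21, 8.07 and 8.12 in L-INV and 8.98, 9.13 and 9.20 in H-INV cells, a rise of 0.97 ± 0.0801. Both genes were higher on every H-INV array.

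U2AF1, the small subunit of the splicing factor that reads the 3′ splice site, had levels of 9.34, 9.15 and 9.31 in L-INV and 10.35, 10.21 and 10.16 in H-INV cells. The rise was 0.97 ± 0.0811, and a second probe gave 0.92 ± 0.139. The probe table assigns these probes to U2AF1. RefSeq also holds a separate chromosome 21 entry with the synonym U2AF1L5, and the probes were not matched against its sequence. Probes of the other members were not matched against any sequence either. PCBP3, a protein that binds C-rich RNA, stood at 7.43, 7.40 and 7.31 in L-INV and 8.41, 8.34 and 8.42 in H-INV cells. With its tight groups it rose by 1.01 ± 0.0667.

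WDR4, the partner of METTL1 in the methylation of guanosine in transfer RNA, had levels of 10.67, 10.75 and 10.80 in L-INV and 11.48, 11.30 and 11.52 in H-INV cells, and its 3 probes rose by 0.69, 0.60 and 0.72. MCM3AP, a scaffold of messenger RNA export, stood at 8.34, 8.60 and 8.47 in L-INV and at 9.26, 9.28 and 9.13 in H-INV cells, a rise of 0.75 ± 0.0863. An antisense transcript, MCM3AP-AS1, was measured by its own probe and differed by 0.26 ± 0.101 (adjusted p = 0.052).

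ADARB1, an enzyme that edits adenosine to inosine in double-stranded RNA, rose by 0.25 ± 0.0655, from 11.36, 11.41 and 11.35 to 11.65, 11.56 and 11.67. Its groups were close but did not overlap. PWP2, a component of the small subunit processome, was near background, with 5.69, 5.08 and 4.99 in L-INV cells, where only 1 array was above background, and 5.70, 5.86 and 5.63 in H-INV cells. It was the only riser whose groups overlapped, because L-INV array 1 lay above H-INV array 3, and its rise of 0.48 ± 0.170 was lost when any array other than L-INV replicate 1 was left out.

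Of 4 listed genes of the ubiquitin, SUMO and proteasome systems, 3 rose, with a median of 0.58 for the group. UBE2G2, a ubiquitin-conjugating enzyme of endoplasmic reticulum-associated degradation, had levels of 9.62, 9.53 and 9.62 in L-INV and 10.43, 10.41 and 10.41 in H-INV cells, and rose by 0.82 ± 0.0634. PSMG1, a chaperone of proteasome assembly, stood at 10.52, 10.58 and 10.82 in L-INV and 11.43, 11.36 and 11.44 in H-INV cells, a rise of 0.77 ± 0.0894. The H-INV arrays lay within a narrow range for both genes.

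SUMO3, a small ubiquitin-like modifier, rose less, by 0.38 ± 0.0785, from 11.19, 11.06 and 11.28 to 11.55, 11.49 and 11.61. TTC3, a ubiquitin ligase and the first gene of the stretch, had levels of 10.94, 10.90 and 10.93 in L-INV and 10.97, 10.92 and 10.92 in H-INV cells. These groups overlapped, and the log2 fold change was 0.01 ± 0.0612.

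The 4 measured genes of membrane trafficking and glycosylation all rose, by a median of 0.65. VPS26C, a subunit of the retriever complex that recycles cargo from endosomes, had levels of 8.04, 8.15 and 8.08 in L-INV and 8.71, 8.77 and 8.87 in H-INV cells, a rise of 0.69 ± 0.0714. PTTG1IP, which binds the securin PTTG1, rose by 0.61 ± 0.0777, from 11.21, 11.01 and 11.04 to 11.75, 11.64 and 11.70. Both genes had separate groups.

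TRAPPC10, a subunit of a tethering complex of the Golgi, stood at 5.14, 5.67 and 5.41 in L-INV cells, where 1 array was above background, and at 6.03, 6.15 and 6.41 in H-INV cells, a rise of 0.79 ± 0.145. POFUT2, which adds fucose to thrombospondin repeats, rose by 0.23 ± 0.0688, from 9.20, 9.07 and 9.12 to 9.29, 9.37 and 9.40. Its call was lost without L-INV replicate 2, H-INV replicate 2 or H-INV replicate 3. B3GALT5, a galactosyltransferase, had no probe above background on any array.

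The 3 protein kinases went different ways. RIPK4, a kinase of keratinocyte differentiation, rose from 6.54, 6.43 and 6.76 in L-INV to 8.12, 7.97 and 7.93 in H-INV cells, a log2 fold change of 1.43 ± 0.0989. DYRK1A, a dual-specificity kinase dosage-sensitive in brain development, stood at 8.61, 8.67 and 8.59 in L-INV and 8.92, 8.89 and 9.17 in H-INV cells, a rise of 0.37 ± 0.0878 with H-INV array 3 the highest. SIK1, a salt-inducible kinase that restrains CREB-dependent transcription, fell from 10.15, 10.25 and 10.07 to 9.50, 9.65 and 9.76, a log2 fold change of -0.52 ± 0.0873, and its other probe gave -0.48 ± 0.0770. Its promoter is the one printed with 10 GC boxes.

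Among 7 genes of chromatin and transcription 5 were measured and 3 rose, by 0.51 or less. ETS2, an ETS-family transcription factor, had levels of 6.70, 6.48 and 6.45 in L-INV and 7.15, 6.99 and 7.03 in H-INV cells, a rise of 0.51 ± 0.0868. PKNOX1, a homeodomain partner of PBX proteins, rose by 0.41 ± 0.0912, from 6.57, 6.38 and 6.48 to 6.91, 7.01 and 6.73. HMGN1, a nucleosome-binding protein that loosens chromatin, rose by 0.35 ± 0.0704, from 12.57, 12.47 and 12.54 to 12.90, 12.93 and 12.79. None of these groups overlapped.

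BRWD1, a bromodomain protein, had overlapping groups, with 8.17, 8.30 and 8.38 in L-INV and 8.05, 8.29 and 8.36 in H-INV cells, and differed by -0.05 ± 0.0984. Its other 3 probes gave 0.53, 0.31 and 0.25, and the mean of its 4 probes gave 0.26 and a call as higher. ZBTB21, a zinc finger repressor, stood at 7.99, 7.81 and 7.99 in L-INV and 7.82, 8.06 and 8.00 in H-INV cells, with overlapping groups and a difference of 0.03 ± 0.0882. ERG and PRDM15 were above background on no array.

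The 9 listed metabolic enzymes and transporters were split, with 3 higher, 2 lower and 1 uncalled among the 6 measured. SLC19A1, the reduced folate carrier, had levels of 6.83, 7.23 and 7.02 in L-INV and 8.54, 8.36 and 8.00 in H-INV cells, a rise of 1.27 ± 0.147. NDUFV3, a subunit of respiratory complex I, rose by 0.81 ± 0.0860, from 7.04, 7.30 and 7.29 to 8.05, 7.96 and 8.03. PDE9A, a phosphodiesterase of cyclic GMP, rose by 0.78 ± 0.0940, from 6.93, 6.96 and 6.76 to 7.64, 7.53 and 7.82. SLC19A1 had the widest H-INV range of the 3 genes, and none had overlapping groups.

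ABCG1, a cholesterol efflux transporter, went the other way. Its levels were 6.53, 6.44 and 6.49 in L-INV cells and 5.13, 5.23 and 5.29 in H-INV cells, where it was above background on no array, which puts it at least 2.05-fold lower there. This bound sets the L-INV mean against the lowest signal among probes above background on each H-INV array, or the probe's own signal where that was higher, and it holds for this background correction only. The fitted log2 fold change of ABCG1, -1.27 here, was -0.90 with the authors' table, -0.80 at an offset of 50 and -0.47 without correction. CBS, the first enzyme of transsulfuration, fell by 0.30 on the log2 scale (SE 0.0744), from 10.82, 10.75 and 10.61 to 10.41, 10.39 and 10.46. SLC37A1, a glucose-6-phosphate exchanger, stood at 5.88, 5.80 and 6.02 in L-INV and 5.86, 6.08 and 5.87 in H-INV cells, with overlapping groups. FTCD, of histidine and folate metabolism, was above background on no array.

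BACE2, a relative of the beta-secretase of Alzheimer disease, fell from 9.64, 9.59 and 9.36 to 9.13, 9.12 and 9.13, a log2 fold change of -0.41 ± 0.0842, and its other probe gave -0.79 ± 0.100. Its H-INV arrays were almost equal. CSTB, an inhibitor of lysosomal cathepsins, rose by 0.23 ± 0.0764, from 11.95, 11.99 and 12.17 to 12.25, 12.25 and 12.28. The CSTB call was lost when any array other than L-INV replicate 3 was left out. The membrane protease TMPRSS2 was above background on no array and TMPRSS3 on 1 H-INV array.

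Of the remaining 11 genes, of the cell surface, of secretion or of other kinds, 5 were measured. SPATC1L, a relative of a centriole protein, had levels of 5.73, 5.40 and 5.69 in L-INV cells, 2 of those arrays being above background, and 6.95, 7.08 and 7.03 in H-INV cells, a rise of 1.41 ± 0.0970. LRRC3, a leucine-rich repeat membrane protein, stood at 5.55, 5.21 and 5.77 in L-INV cells, again with 2 arrays above background, and at 6.47, 6.77 and 6.61 in H-INV cells, a rise of 1.11 ± 0.140. C2CD2, a C2 domain protein, rose by 0.71 ± 0.0738, from 8.92, 8.89 and 9.05 to 9.72, 9.68 and 9.59. The H-INV groups of all 3 genes lay clear of the L-INV groups.

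HSF2BP, a meiotic recombination factor, fell from 6.19, 6.07 and 6.07 to 5.45, 5.70 and 5.88, with 2 H-INV arrays above background, a log2 fold change of -0.44 ± 0.108. SH3BGR, a small protein with an SH3-binding motif, had 5.62, 5.50 and 5.70 in L-INV and 4.98, 5.32 and 5.92 in H-INV cells. Only H-INV array 3 was above background there, and without H-INV replicate 3 the difference changed from -0.20 to -0.46 and was called as lower. ICOSLG, the ligand of the T cell receptor ICOS, was above background on 2 H-INV arrays and on no L-INV array, which left it unmeasured by the filter. PCP4, FAM3B, MX2 and RSPH1 were above background on no array. PDXK, AGPAT3 and TRPM2 are not named by the probe table used here and were not analysed.

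Several members had more than 1 measured probe. The 16 further probes of 12 members had the sign of the brightest probe in 13 cases, and the exceptions were the 3 further probes of BRWD1. Apart from BRWD1, the largest gap between probes of a member was 0.38, for BACE2 with -0.41 and -0.79.

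**Figure D2:**
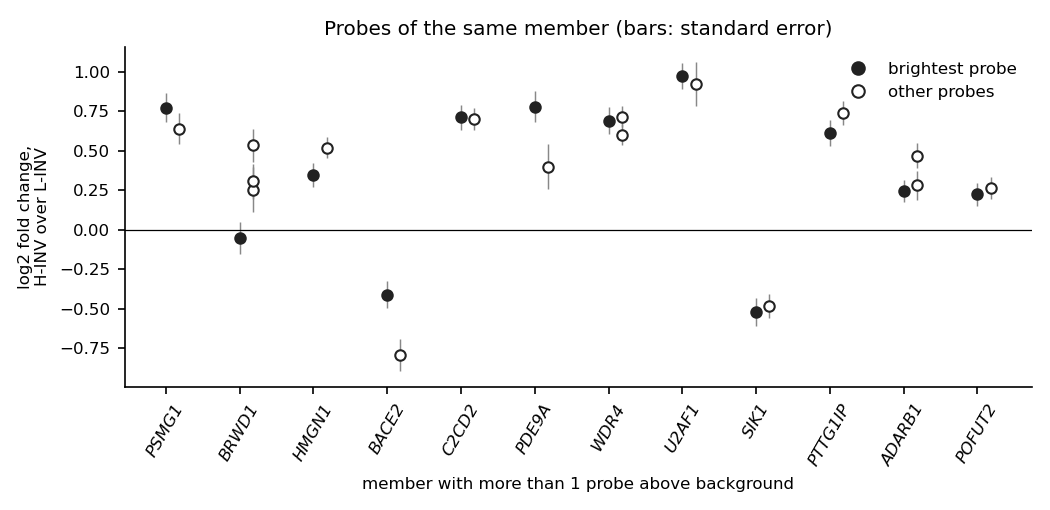
Log2 fold change of H-INV over L-INV (vertical axis) for each probe above background of the 12 members with more than 1 such probe (horizontal axis). Filled circles are the brightest probe, which stands for the gene, open circles are the others, and bars are standard errors. Probes of a member lie on the same side of 0 except for BRWD1, whose brightest probe is at -0.05 and whose others are at 0.25 to 0.53.

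Along the stretch, changes were uneven. Between TTC3 and PCP4, 5 of 8 measured members rose and none fell (median 0.36). Between BACE2 and SIK1, 7 of 13 rose and 4 fell (median 0.41). Between HSF2BP and MCM3AP, 15 of 16 rose and 1 fell (median 0.77, or 1.71-fold), the 15 being consecutive measured members from RRP1B to MCM3AP. These segments were drawn with the values known and were not compared by a test.

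The list left out other genes of the same stretch. Of 53 with a probe, 15 were measured, of which 9 rose, 3 fell and 3 did neither, with a median of 0.34. Counted with these genes, the longest run of consecutive risers was 7. MX1, an interferon-induced antiviral GTPase, rose from 5.86, 5.89 and 5.77 to 6.94, 6.90 and 6.94 (log2 fold change 1.09 ± 0.0650, limma adjusted p = 2.1e-06). LSS, the lanosterol synthase of sterol synthesis, rose by 0.96 ± 0.0698 (limma adjusted p = 7.2e-06), and SLX9, a factor of ribosome assembly in yeast, by 0.94 ± 0.0952 (limma adjusted p = 5.2e-05). COL18A1, the collagen that releases endostatin, was above background on the H-INV arrays only and at least 1.67-fold higher there. It passed the detection filter through those arrays alone, so its call rests on L-INV values below background.

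COL6A1, a chain of collagen VI, fell from 8.15, 8.10 and 8.16 to 6.81, 7.04 and 6.84 (log2 fold change -1.24 ± 0.0791, limma adjusted p = 3.2e-06). PLAC4, a placental transcript in the BACE2 neighbourhood, exceeded background in L-INV cells only and was at least 1.51-fold lower on the H-INV arrays. It passed the detection filter through the L-INV arrays alone, so its call rests on H-INV values below background. The integrin chain ITGB2, named here after its values were seen, fell by 0.43 on the log2 scale (SE 0.0947, limma adjusted p = 0.0046). The 2 collagen genes of the stretch named here thus went opposite ways.

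At the edges, the measured genes just inside were TTC3 (0.01) and MCM3AP (0.75). On the centromere side, SIM2, HLCS and PIGP gave log2 fold changes of -0.02, -0.13 and -0.49, the last a fall (limma adjusted p = 0.00063). Beyond MCM3AP, YBEY and C21orf58 gave -0.06 and -0.02, and PCNT, which encodes the centrosome scaffold pericentrin, rose by 1.08 ± 0.0719 (limma adjusted p = 4.2e-06). Beyond MCM3AP 2 of 5 measured genes rose, and none fell.

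Rises were also found well outside the stretch. Of 56 measured genes of chromosome 21 proximal of TTC3, 32 rose (57.1%), 7 fell and 17 did neither, with a median of 0.29. CBR1 and CBR3, neighbouring carbonyl reductases, rose by 1.30 ± 0.0862 (limma adjusted p = 4.1e-06) and 1.02 ± 0.103 (limma adjusted p = 5.1e-05). CHAF1B, a subunit of the histone chaperone CAF-1, rose by 1.10 ± 0.122 (limma adjusted p = 9.0e-05). NRIP1, a nuclear receptor corepressor, fell from 8.75, 8.65 and 8.76 to 5.34, 5.59 and 5.55 (log2 fold change -3.23 ± 0.0837, limma adjusted p = 1.3e-08), with 2 H-INV arrays above background.

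**Figure D3:**
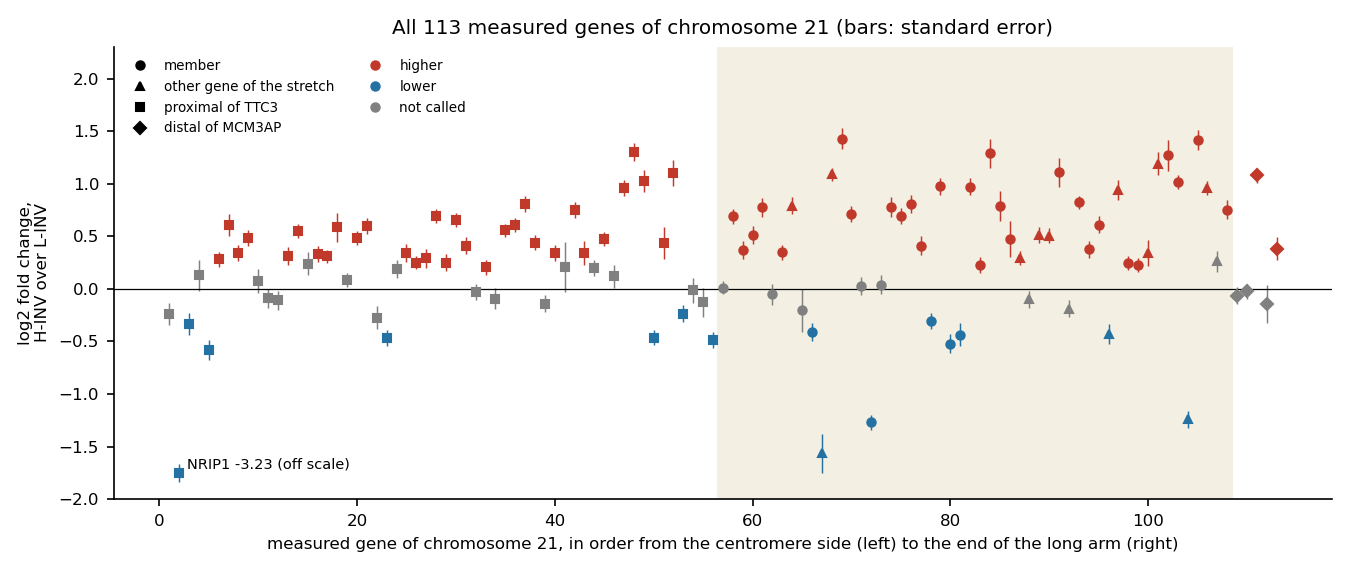
Log2 fold change of H-INV over L-INV (vertical axis, bars are standard errors) for the 113 measured genes of chromosome 21 in order (horizontal axis), with the stretch from TTC3 to MCM3AP shaded. Circles are members, triangles other genes of the stretch, squares genes proximal of TTC3 and diamonds genes distal of MCM3AP, in red where higher, blue where lower and grey where not called. Points above 0 prevail among the members (median 0.51) and among the genes proximal of TTC3 (median 0.29). The 5 genes distal of MCM3AP have a median of -0.025, and SIM2, HLCS and PIGP, next to TTC3, lie below 0. NRIP1 at -3.23 is drawn at the lower edge.

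Set beside whole chromosomes, chromosome 21 had the highest median log2 fold change of the 23 compared (0.34 over 113 genes, with 61.9% higher and 13.3% lower). It was followed by chromosome 3 (0.29, 53.7% higher), chromosome 5 (0.24, 49.7% higher) and chromosome 2 (0.13, 41.7% higher). Chromosome 7 was at the other end (-0.18, with 18.9% higher and 46.0% lower). Without the members, the other 76 genes of chromosome 21 had a median of 0.290, just under the 0.291 of chromosome 3, and no longer came first by median. Their share of risers, 56.6%, stayed above the 53.7% of chromosome 3. Leaving out genes chosen for rising lowers both values by construction, so nothing is read from the change in rank. These medians were not tested against each other. DNA copy number was not measured on these arrays.

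**Figure D4:**
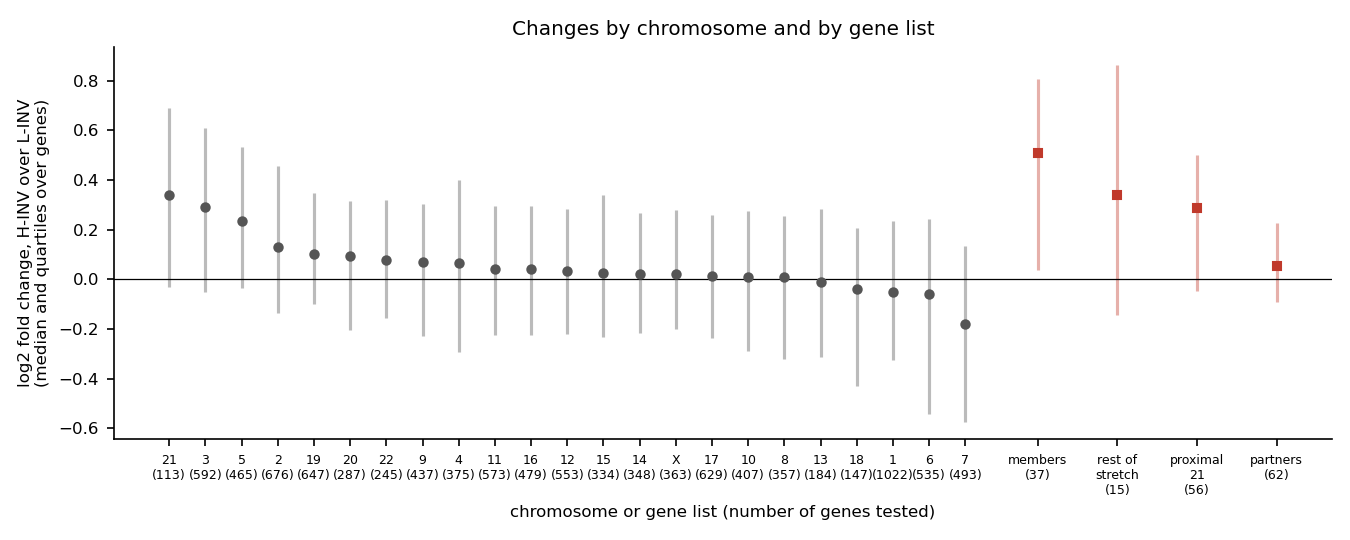
Median log2 fold change of H-INV over L-INV with quartiles over genes (vertical axis) for 23 chromosomes ordered by median and for 4 gene lists (horizontal axis, number of genes in brackets). Circles are chromosomes and squares are the members, the other genes of the stretch, the proximal genes of chromosome 21 and the partner genes on other chromosomes. Chromosome 21, members included, leads the chromosomes at 0.34, the members stand at 0.51 and the partners at 0.06.

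Partners of the members on other chromosomes were counted in the same way. From 79 genes listed as complex partners, paralogues or pathway neighbours, 62 were measured, of which 20 rose (32.3%), 9 fell and 33 did neither, with a median of 0.06. By fitted log2 fold change, the largest changes called were those of CD274, WDR36, PCBP4 and SLC46A1. CD274 (PD-L1), an immune checkpoint ligand of the same family as ICOSLG, exceeded background in L-INV cells only. It was at least 1.35-fold lower on the H-INV arrays. CD274 passed the detection filter through the L-INV arrays alone, and its rank rests on H-INV values below background. WDR36, found with PWP2 in the small subunit processome, rose by 0.81 ± 0.0936 (limma adjusted p = 0.00012), and PCBP4, a paralogue of PCBP3, by 0.80 ± 0.0924 (limma adjusted p = 0.00012). SLC46A1, the proton-coupled folate transporter, rose by 0.70 ± 0.109 (limma adjusted p = 0.00065).

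Some of the listed partners, picked after their values were seen, can be set beside single members. METTL1, the catalytic partner of WDR4, rose by 0.29 ± 0.0622 against 0.69 for WDR4. U2AF2, the large subunit that pairs with U2AF1, rose by 0.33 ± 0.0839 against 0.97. The proteasome assembly chaperones PSMG2, PSMG3 and PSMG4 gave 0.10, -0.04 and 0.15 and were not called, against 0.77 for PSMG1. Some partners fell while the member rose, such as VPS35L at -0.56 against 0.69 for VPS26C. Of the other listed partners of VPS26C, CCDC93 and COMMD1 rose by 0.23 and 0.22. VPS29 (0.06) and CCDC22 (-0.13) were not called. SEM1 also fell, at -0.33 against 0.75 for MCM3AP, whose partner ENY2 rose by 0.25 while PCID2 (-0.12) was not called. SYVN1 gave -0.29 against 0.82 for UBE2G2, whose other measured partners UBE2G1 (0.18) and AUP1 (0.15) were not called. In other pairs the partner lay higher, with BRWD3 and PHIP at 0.51 and 0.22 against -0.05 for the brightest probe of BRWD1. The mean of the 4 BRWD1 probes, at 0.26, was above the value of PHIP. WDR36 gave 0.81 against 0.48 for PWP2, which was above background on only 1 L-INV array. The other measured partners of PWP2 were not called, namely TBL3 (0.04), UTP6 (0.14), UTP18 (0.05) and DDX52 (-0.13). Differences between a member and its partner were not tested.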

How the data were processed

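The authors scanned the arrays and exported the values with GenomeStudio, and the submitters' processing notes also name Partek, the release of which is given in the study's methods only. The deposited scanner table gives raw linear intensity for 47322 probes, with no normalization or background subtraction. The authors also deposited detection p-values of each probe, from the negative controls of its array. A second deposited table holds the authors' background-corrected, quantile-normalized linear intensity for 47320 probes, with values down to -24.0, and served as an alternative after a shift of 40.0.

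In R 4.3.3, limma 3.58.1 corrected the scanner values for background (nec, using the detection p-values, with offset 16), then normalized them by quantiles and took log2. The filter required detection p under 0.01 on 3 or more of the 6 arrays and kept 16941 probes. Of all probes, 30111 had 1 gene symbol, 8 several and 17203 none in the platform annotation. For 30072 of the probes with 1 symbol, the Entrez ID was found in RefSeq (GRCh38.p14), which also gave gene order. The brightest probe stood for each of 10279 genes. The comparison of H-INV with L-INV used lmFit and eBayes (two-sided), p-values were adjusted over all genes by the Benjamini-Hochberg method, and the fit was checked on simulated data. Precision is limited by the number of arrays, with a median standard error of 0.0824 on the log2 scale.

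Members and gene lists were chosen with earlier results of these data known. Named outside the members were the 3 measured neighbours beyond each end, and the largest changes among other genes of the stretch (up to 6), proximal genes (up to 4) and partners (up to 4). Alternatives covered the starting table, background, offset, scaling, filters, probes, test, prior, block, thresholds and single arrays left out.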

Additional observations from a re-analysis of the deposited data

How the results depend on the processing

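The members' median log2 fold change of 0.51 was 0.42 with the authors' table, 0.34 where background was left uncorrected, 0.39 at an offset of 50 and 0.37 without the detection filter, and ranged from 0.49 to 0.65 with single arrays left out (0.65 without L-INV replicate 1). With a fold change above 2 required, 1053 of all genes were called in place of 5958, and 6 members, 2 other genes of the stretch, 3 proximal genes and 0 partners were called higher (limma, against 27, 9, 32 and 20 at the adjusted p alone). At an adjusted p under 0.01, 9 partners were called higher. With that fold threshold the share of higher among all calls was 41.2%, against 56.2%. Leaving out single arrays gave 24 to 26 members higher, and the other alternatives 23 to 28 (25 in the one-way test that the methods name). No called member was called in the opposite direction. Calls were lost among CSTB, PWP2, POFUT2, HSF2BP and, at the stricter p, ADARB1. Leaving out any L-INV array removed ABCG1 by the detection filter, and requiring all 6 arrays removed 7 members. Of 775 values of 57 named genes under alternatives, 702 moved by less than 1 SD.

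Same-numbered arrays showed no shared deviation, since their deviations from the group means correlated at -0.07, -0.02 and -0.09. Arrays of different numbers gave -0.04 to 0.10. These correlations cannot show whether equal numbers mark sets prepared together. With the replicate number as a block, 5647 genes were called, 26 members were called higher (POFUT2 was lost), and the members' median stayed at 0.51.

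Signal over background limits what is seen, since 11 members with probes were too dim to be measured and a change in them would be missed. The spread between 3 sets per group, their shared BeadChip and the choice of members on the same contrast limit all values. DNA copy number, protein and single cells are not analysed here.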

Other observations

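Proximal of TTC3, the class II cytokine receptor cluster of chromosome 21 was measured with all 4 of its receptor genes, picked after their values were seen. IFNAR1 and IFNAR2, the chains of the type I interferon receptor, rose by 0.41 ± 0.0810 (limma adjusted p = 0.0025) and 0.25 ± 0.0795 (limma adjusted p = 0.026) on the log2 scale. IL10RB, a chain shared by the receptors of IL-10 and related cytokines, rose by 0.65 ± 0.0696 (limma adjusted p = 7.0e-05). IFNGR2, a chain of the interferon gamma receptor, gave -0.03 ± 0.0737 (limma adjusted p = 0.73).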
